A study of Mus musculus with 4 samples.

Results

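The enzymes and carrier proteins that build core 2 O-glycans and selectin ligands were examined in CD4 T cells with and without ectopic Tox. They were 10 genes (*Gcnt1*, *Selplg*, *Fut7*, *St3gal1*, *St3gal4*, *St3gal6*, *C1galt1*, *C1galt1c1*, *B4galt1* and *Spn*) of the 24369 genes listed for each library. The list was built around *Gcnt1*, which was picked for its difference between Tox RV and EV RV cells in these same libraries, and the other genes were added by role with earlier results of these data known. The difference of each gene between the groups is therefore given as a description with no test. All 10 genes had enough counts to enter the fit across the whole table.

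Selectins capture leukocytes from the blood by binding carbohydrates on scaffold proteins of the T cell surface. In mice the main scaffolds on T cells are PSGL-1 (*Selplg*) and CD43 (*Spn*), and both carry O-glycans that start with GalNAc on serine or threonine. C1galt1 adds galactose to form core 1, and needs the chaperone Cosmc (*C1galt1c1*) to fold. From core 1, Gcnt1 adds a GlcNAc branch to form core 2, whereas St3gal1 caps core 1 with sialic acid, so that both enzymes use the same substrate. The core 2 branch is then extended with galactose by B4galt1, sialylated by St3gal4 and St3gal6 and fucosylated by Fut7, which gives the sialyl Lewis x structure that P-selectin and E-selectin bind. Activated Th1 effector cells are known to carry such ligands, while naïve T cells largely lack them.

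The 4 RNA-seq libraries came from splenic naïve CD4 T cells of wild-type C57BL/6 mice that were activated with anti-CD3, anti-CD28 and IL-2 and no polarizing cytokines, and transduced after 2 days. The 2 EV RV libraries received MSCV-IRES-eGFP, the empty vector, and the 2 Tox RV libraries received MSCV-Tox-IRES-eGFP, which drives Tox from the viral promoter and thus above its own control. On day 5 the cells of both groups were restimulated through CD3 (the methods name biotinylated anti-CD3 with streptavidin, the description of the design adds anti-CD28), and GFP+ CD4 cells were sorted. Each group represented 2 mice, the ages of which are not given in the sources used here for this experiment, and whether EV RV and Tox RV cells with the same number shared a mouse is not stated.

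The libraries held 46989997 to 74548723 expected counts, an expected count being RSEM's estimate of the fragments that belong to a gene. In CPM (counts relative to the library total after TMM scaling), *Tox* itself read 11.7 for EV RV replicate 1, 5.73 for EV RV replicate 2, 121 for Tox RV replicate 1 and 99.9 for Tox RV replicate 2, higher in both libraries labelled Tox RV. EV RV replicate 1 stood apart: it lay at -53.8 on the first principal component (58.0% of the variance) against 5.70 to 25.8 for the other libraries, and 24.7% of its counts came from the ribosomal precursor *Rn45s*, against 7.14% to 11.97% elsewhere. The differences of the 10 genes are therefore also given without it. The summed CPM of 6 CD4 T cell markers ranged from 1562 to 2184 over the libraries. The summed CPM of 2 CD8 T cell markers lay between 3.87 and 4.77, that of 5 B cell markers between 1.16 and 1.62 with *Ms4a1* and *Pax5* at 0 counts everywhere, and that of 6 myeloid markers between 1.56 and 2.18. In RNA from a whole sorted population, fewer cells that express a gene and less RNA of it per cell cannot be told apart.

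Because AP-1, IRF and composite AP-1 and IRF sites are the elements at which Tox has been studied in T cells, the promoters of the 10 genes were searched for these and for NFAT, STAT and T-box sites. The RefSeq promoter windows (assembly GRCm38.p6, 250 bases before to 50 after a start) covered 7 of the 10 genes with 11 windows, and the promoters of *Selplg*, *St3gal1* and *C1galt1c1* were not analysed here. The 250 bases before the start of 5 windows are shown, for the gene on which the list turns and for scaffold, extension and fucosylation genes. Capitals mark each match to NFAT (GGAAA or its reverse complement TTTCC) and to STAT (TTCNNNGAA). Every sequence runs 5′ to 3′ on the strand of the gene.
Gcnt1 distal start, chr19:17372845-17373094, minus strand: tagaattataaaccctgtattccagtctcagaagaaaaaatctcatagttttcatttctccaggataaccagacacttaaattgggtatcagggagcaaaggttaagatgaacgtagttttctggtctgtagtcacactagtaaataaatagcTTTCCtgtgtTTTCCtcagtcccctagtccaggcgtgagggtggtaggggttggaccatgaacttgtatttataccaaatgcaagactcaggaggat
Gcnt1 middle start, chr19:17356668-17356917, minus strand: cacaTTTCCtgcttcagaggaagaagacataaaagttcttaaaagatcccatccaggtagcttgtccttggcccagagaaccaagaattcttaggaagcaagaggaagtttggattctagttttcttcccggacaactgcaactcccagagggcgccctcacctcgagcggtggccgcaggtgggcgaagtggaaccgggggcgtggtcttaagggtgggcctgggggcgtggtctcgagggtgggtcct
Fut7, chr2:25422992-25423241, plus strand: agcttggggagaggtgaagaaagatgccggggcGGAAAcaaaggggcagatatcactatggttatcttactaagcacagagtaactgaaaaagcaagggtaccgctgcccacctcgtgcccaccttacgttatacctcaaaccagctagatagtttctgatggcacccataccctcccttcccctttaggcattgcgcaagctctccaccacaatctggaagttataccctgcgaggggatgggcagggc
B4galt1, chr4:40853985-40854234, minus strand: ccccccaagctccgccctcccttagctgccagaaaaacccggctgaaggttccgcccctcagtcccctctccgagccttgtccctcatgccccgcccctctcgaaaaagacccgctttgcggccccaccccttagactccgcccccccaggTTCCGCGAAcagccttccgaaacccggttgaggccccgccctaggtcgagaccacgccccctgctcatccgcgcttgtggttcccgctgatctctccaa
Spn, chr7:127137824-127138073, minus strand: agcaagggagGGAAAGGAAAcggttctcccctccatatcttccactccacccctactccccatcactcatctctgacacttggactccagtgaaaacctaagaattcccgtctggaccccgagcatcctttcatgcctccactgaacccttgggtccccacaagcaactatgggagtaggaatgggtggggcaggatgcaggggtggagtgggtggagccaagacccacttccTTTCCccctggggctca
None of the 11 windows held AP-1 (TGANTCA), which 7.81% of all 32851 windows held, nor the IRF motif (3.44% of windows), nor T-box (TCACACCT, 1.28%). The composite AP-1 and IRF elements were also absent from the 11 windows, and were rare in all windows (0.119% and 0.125% for the wide and the narrow form). STAT was matched in 1 window, that of *B4galt1*, at -99 from the start, against 8.30% of all windows. NFAT, a motif of only 5 letters, was matched in 8 of 11 windows and in 61.3% of all windows. All motifs were read on both strands, and the longer composites contain the AP-1 letters. *Gcnt1* has 3 windows in the table, each of which held NFAT letters. The distal *Gcnt1* window had 40.7% G and C, the middle window 58.7% and the proximal one 52%. A match is a string of letters, not a measured binding site, and its absence here concerns these windows only.

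*Gcnt1*, the core 2 branching enzyme, was the gene of the list with the largest difference. EV RV replicate 1 had 4.005 CPM and replicate 2 had 2.54 CPM, while Tox RV replicate 1 had 24.3 CPM and replicate 2 had 10.1 CPM (169, 193, 1537 and 523 counts). The groups did not overlap, the lower Tox RV value being 2.52 times the higher EV RV value. The Tox RV replicates themselves differed 2.41-fold and the EV RV replicates 1.58-fold. The fitted log2 fold change was 2.40 (SE 0.48, 95% interval 1.21 to 3.60, n = 2 per group), a 5.29-fold higher level. Without EV RV replicate 1 it was 2.76, and without Tox RV replicate 1, the library with the highest value, it was 1.62. Of the 14143 genes tested, 19 had a larger absolute log2 fold change. These are the values on which the gene was chosen. In mm10 the gene lies on the minus strand, at chr19:17326141-17372844.

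The whole table sets the scale for these values. The quasi-likelihood test of edgeR, adjusted by Benjamini-Hochberg, called 0% of the 14143 genes (0 genes) at the 0.05 level, and the smallest adjusted p was 0.490. The transduced gene *Tox* itself had that adjusted p, at a log2 fold change of 3.68, and so was not called by edgeR either. Unadjusted p-values below 0.05 were seen for 512 genes (3.62%), and 478 genes (3.38%) had an absolute log2 fold change above 1. DESeq2, the tool named in the methods, called 22 of 18183 genes, 11 of which (0.0605%) were higher in Tox RV cells. *Gcnt1* was among those 11 and the other 9 genes of the list were not called. The Tox RV values exceeded the EV RV values without overlap for 18.6% of all genes tested and lay below them without overlap for 17.4%. In the list this was so for 3 genes above (*Gcnt1*, *C1galt1c1* and *Spn*) and 2 genes below (*St3gal1* and *B4galt1*). Since the list was made from this contrast, nothing is read from these counts or from the DESeq2 call of *Gcnt1*.

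**Figure D1:**
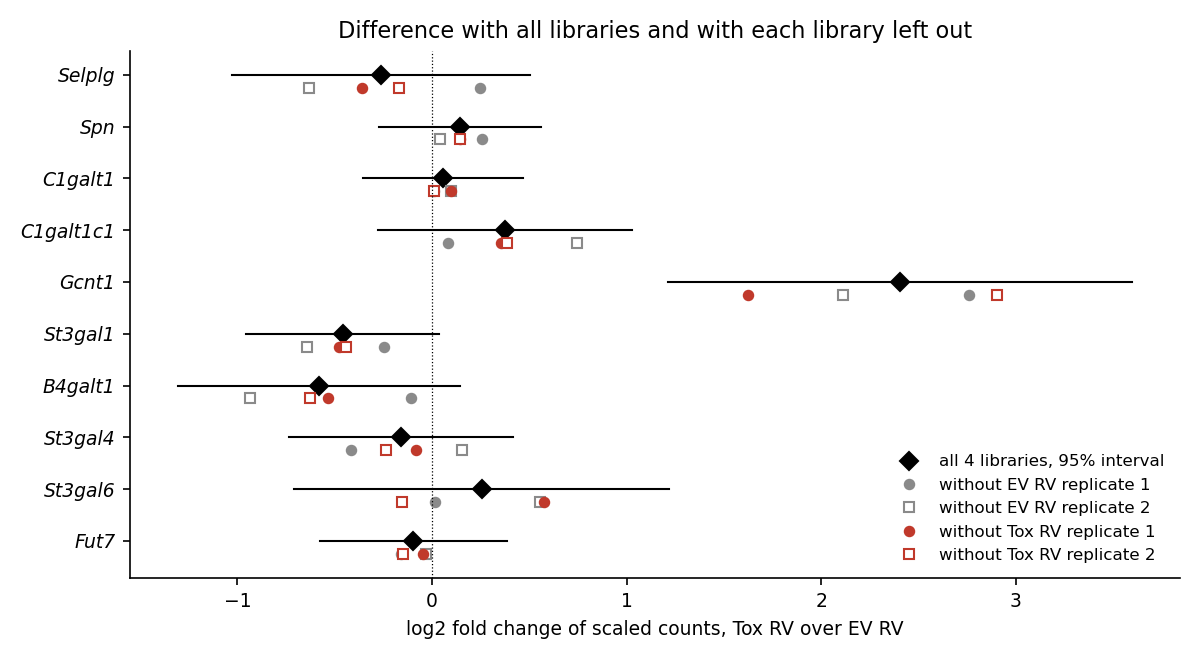
Log2 fold change of scaled counts (horizontal axis, Tox RV over EV RV) for each gene. Diamonds and bars are the fit of all 4 libraries with its 95% interval, circles and squares the fits with 1 library left out. *Gcnt1* lies between 1.62 and 2.90 in the fits with a library left out, while the intervals of the other 9 genes include 0.

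The 10 genes lie on different chromosomes (mm10, GENCODE). On the plus strand are *Fut7* at chr2:25423267-25426374 and *C1galt1* at chr6:7844842-7875687. On the minus strand, beside *Gcnt1*, are *Selplg* at chr5:113818536-113832644, *St3gal1* at chr15:67102875-67176830, *St3gal4* at chr9:35046576-35119268, *St3gal6* at chr16:58468125-58524243, *C1galt1c1* at chrX:38630785-38635087, *B4galt1* at chr4:40804602-40854005 and *Spn* at chr7:127132232-127137823. The gene spans of *St3gal4* and *C1galt1*, introns included, overlap a non-coding transcript or a pseudogene, and *B4galt1* holds miRNA genes. Whether exons share these stretches was not computed. Use of strand in the counting is not stated, so reads of any shared stretch cannot be assigned with certainty.

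The scaffold proteins were the most abundant members. *Spn*, which encodes CD43, had 566 and 483 CPM in EV RV cells and 578 and 582 CPM in Tox RV cells. The Tox RV values sat just above the EV RV values, with a log2 fold change of 0.15 (SE 0.17, interval -0.27 to 0.56), or 0.26 without EV RV replicate 1. In TPM, which divides by transcript length, the same libraries read 306, 230, 263 and 266, and the groups overlapped. *Selplg*, which encodes PSGL-1, had 229 and 123 CPM in EV RV cells and 156 and 138 CPM in Tox RV cells. The EV RV replicates differed 1.86-fold and enclosed both Tox RV values (log2 fold change -0.26, SE 0.31, interval -1.03 to 0.50). Without EV RV replicate 1 the sign turned, to 0.25.

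Of the core 1 machinery, *C1galt1*, the core 1 synthase, was the steadiest of the 10 genes between replicates. It had 31.5 and 33.1 CPM in EV RV cells and 32.4 and 34.7 CPM in Tox RV cells. The groups overlapped, with a log2 fold change of 0.06 (SE 0.17, interval -0.36 to 0.47), or 0.01 without EV RV replicate 1. *C1galt1c1*, which encodes its chaperone Cosmc, had 7.68 and 12.04 CPM in EV RV cells and 12.9 and 12.7 CPM in Tox RV cells. Its EV RV replicate 1 was the only low library, and EV RV replicate 2 lay close to the Tox RV values. The log2 fold change of 0.37 (SE 0.26, interval -0.28 to 1.03) was 0.08 without EV RV replicate 1.

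*St3gal1*, which caps core 1 with sialic acid in place of the core 2 branch, had 71.1 and 53.6 CPM in EV RV cells and 45.8 and 44.8 CPM in Tox RV cells. The groups did not overlap, and the higher Tox RV value was 0.855 times the lower EV RV value. The log2 fold change was -0.46 (SE 0.20, interval -0.96 to 0.04) and -0.25 without EV RV replicate 1. The Tox RV values of *Gcnt1* lay above the EV RV libraries and those of *St3gal1* below, as they did for 17.4% of all genes tested. *Gcnt1* was chosen for its side, and a joint shift of both enzymes was not tested.

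The TPM ratio of *Gcnt1* to *St3gal1* within a library does not depend on scaling between libraries. It was 0.0711 for EV RV replicate 1 and 0.0610 for replicate 2, against 0.671 for Tox RV replicate 1 and 0.285 for replicate 2. Read the other way, *St3gal1* transcripts outnumbered *Gcnt1* transcripts 14.1 and 16.4 to 1 in EV RV cells, and 1.49 and 3.51 to 1 in Tox RV cells. *St3gal1* stayed the more abundant in every library. The mean log2 ratio differed by 2.73 between the groups (SD between replicates 0.63). The ratio holds the *Gcnt1* values that chose the gene and is no separate evidence. The ratio of *C1galt1c1* to *C1galt1*, chaperone to client, was 0.347 and 0.518 in EV RV cells and 0.567 and 0.521 in Tox RV cells.

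**Figure D2:**
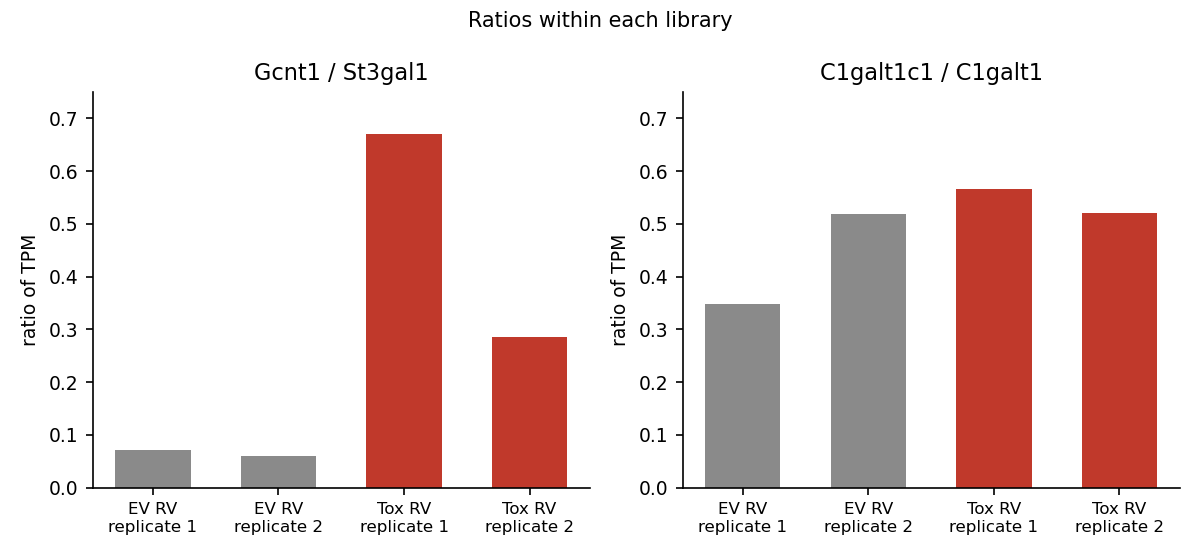
Ratio of TPM values (vertical axis) within each library for *Gcnt1* over *St3gal1* (left) and *C1galt1c1* over *C1galt1* (right), 1 bar per library. The left ratio reaches 0.671 and 0.285 with Tox RV against 0.0711 and 0.0610 with the empty vector, while in the right panel EV RV replicate 1 is the low bar at 0.347.

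The genes that complete the branch had smaller differences between the groups than *Gcnt1*, which was chosen for its difference. *B4galt1*, which adds galactose to the branch, had 141 and 78.9 CPM in EV RV cells and 70.9 and 76.2 CPM in Tox RV cells. The Tox RV values lay below both EV RV values, but EV RV replicate 2 was only 1.11 times the lower of them, and the log2 fold change of -0.58 (SE 0.29, interval -1.31 to 0.15) was -0.11 without EV RV replicate 1. *St3gal4*, the more abundant of the pair of sialyltransferases for sialyl Lewis x, had 51.4 and 75.5 CPM in EV RV cells and 53.7 and 60.1 CPM in Tox RV cells. Both Tox RV values fell between the EV RV values (log2 fold change -0.16, SE 0.23, interval -0.73 to 0.42). It was -0.41 without EV RV replicate 1, and the sign turned without EV RV replicate 2, to 0.15.

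*St3gal6*, the other sialyltransferase of this step, was rare at 62 and 161 counts in EV RV cells and 102 and 140 counts in Tox RV cells (1.47, 2.11, 1.61 and 2.70 CPM). The groups overlapped, with a log2 fold change of 0.26 (SE 0.39, interval -0.71 to 1.22) that was 0.01 without EV RV replicate 1 and -0.15 without Tox RV replicate 2. Its transcript shares 1603 bases with *Dcbld2* on the opposite strand, and use of strand in the counting is not stated, so its counts are uncertain. *Fut7*, the fucosyltransferase that finishes the ligand, had 9.91 and 10.7 CPM in EV RV cells and 9.28 and 10.04 CPM in Tox RV cells. The highest library was 1.16 times the lowest, with a log2 fold change of -0.10 (SE 0.19, interval -0.58 to 0.38), or -0.16 without EV RV replicate 1. An interval that includes 0 does not show equal levels, since differences up to its bounds fit it too.

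Levels of different genes were compared in TPM only. In EV RV cells *Spn* (268 TPM ± 53.7, SD, n = 2) and *Selplg* (118 ± 53.8) led, followed by *St3gal4* (53.9 ± 12.6), *B4galt1* (41.2 ± 17.8), *C1galt1* (27.2 ± 0.0071), *St3gal1* (18.1 ± 4.24), *C1galt1c1* (11.8 ± 3.28), *Fut7* (9.89 ± 0.16), *St3gal6* (2.02 ± 0.45) and last *Gcnt1* (1.21 ± 0.41). The libraries of *St3gal4* and *B4galt1* overlapped, as did those of *C1galt1c1* and *Fut7*. In Tox RV cells *Spn* (265 ± 2.14), *Selplg* (91.9 ± 7.99) and *St3gal4* (45.9 ± 3.69) kept the first places, and the order went on with *C1galt1* (26.7 ± 1.31), *B4galt1* (25.8 ± 1.33), *C1galt1c1* (14.5 ± 0.15), *St3gal1* (12.4 ± 0.17), *Fut7* (8.85 ± 0.71), *Gcnt1* (5.94 ± 3.46) and *St3gal6* (2.29 ± 0.82). Here the neighbours *C1galt1* and *B4galt1* overlapped, and *Gcnt1* overlapped *Fut7*.

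*Gcnt1* was thus the least abundant gene of the list in EV RV cells and the next to last in Tox RV cells. Its mean TPM exceeded that of 19.5% of the genes tested in EV RV cells and that of 39.1% in Tox RV cells. *Spn* exceeded 97.3% and 97.1% of genes, and *Selplg* 93.4% and 91.3%. *Fut7* (8.34 to 10 TPM over the libraries) was close to *Gcnt1* in Tox RV replicate 1, at 8.34 against 8.38 TPM, and above it in the other libraries, where *Gcnt1* had 0.92 to 3.49 TPM.

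**Figure D3:**
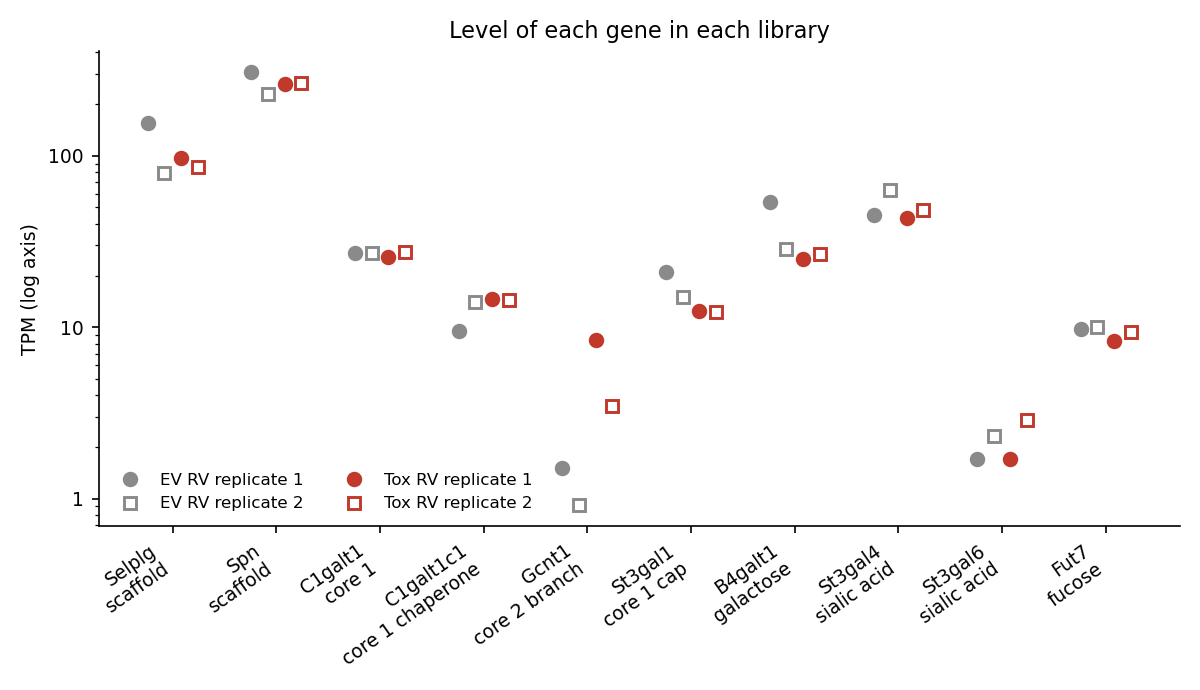
Level of each gene in TPM (vertical log axis) in each of the 4 libraries, with the genes ordered by their step from scaffold to fucose. Filled circles are replicate 1 and open squares replicate 2, grey for EV RV and red for Tox RV. *Gcnt1* is the gene whose Tox RV points (8.38 and 3.49 TPM) stand farthest above its EV RV points (1.5 and 0.92 TPM).

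RSEM also gives a gene length weighted by the estimated mix of its transcripts, which moves when the mix moves. For *Gcnt1* it was 4609 and 4539 bases in EV RV cells and 4609.8 and 4586 bases in Tox RV cells, the longest being 1.56% above the shortest. For *Spn* it was 3241 and 3481 bases in EV RV cells and 3528 and 3516 bases in Tox RV cells, with EV RV replicate 1 the short one. For *Fut7* it was 1844, 1854, 1859 and 1800.1 bases in the same order of libraries. The other 7 genes had the same length in every library.

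Other genes of the same pathway, grouped by role, were read from the fit of the whole table. Of 85 such genes, 67 were tested and 0 were called by edgeR or by DESeq2. Since edgeR did not call *Tox* itself, its 0 calls here and in the role groups below do not show unchanged levels. Unadjusted p-values below 0.05 were seen for 4 of 67, beside 3.62% of all genes. The groups did not overlap for 24 of them, with Tox RV higher for 17 and lower for 7, beside the 18.6% and 17.4% of all genes given above. The median log2 fold change was 0.07 over the 67 genes and 0.0036 over all genes. Of the 67 genes 40 were higher and 27 lower, beside 7135 higher and 7008 lower of all 14143 genes tested. Whether the genes of a role moved together was not tested. The 18 genes not tested had at most 11 counts in any library, and *Galnt15*, *St6gal2* and *Chst4* had 0 counts in every library.

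The GalNAc transferases start the O-glycans that begin with GalNAc. Of 11 tested, 9 were higher in Tox RV cells and 2 were lower, 0 were called and the median log2 fold change was 0.19. *Galnt6* had 85.3 and 90.8 CPM in EV RV cells and 132 and 123 CPM in Tox RV cells. The groups did not overlap, with a log2 fold change of 0.53 (SE 0.16) and an edgeR adjusted p of 0.897 (unadjusted p = 0.0176). *Galnt1*, the most abundant of the group, differed by a log2 fold change of 0.02 (SE 0.17).

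Of the other branching enzymes, 4 were tested and all 4 had negative log2 fold changes, from -2.35 to -0.05, with 0 called. The groups overlapped for all of them but *Gcnt3*. *Gcnt3*, a mucin-type core 2 enzyme related to *Gcnt1*, was near absent, with 26 and 24 counts in EV RV cells and 4 and 6 counts with Tox RV. The log2 fold change of this gene was -2.35 (SE 0.69, edgeR adjusted p = 0.897, unadjusted p = 0.015), and at 0.11 TPM on average it lay far below *Gcnt1* in every library. *Gcnt7*, the most abundant of the group at 4.68 TPM, had a log2 fold change of -0.44 (SE 0.33).

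The 11 lactosamine extension genes tested were divided, 6 higher and 5 lower, between -0.47 and 0.48. *B4galt5*, a galactosyltransferase and the most abundant of them, had 213 and 334 CPM in EV RV cells and 370 and 391 CPM in Tox RV cells. Both Tox RV values lay above, with EV RV replicate 1 the low one, and the log2 fold change was 0.48 (SE 0.25, edgeR adjusted p = 0.897). Without EV RV replicate 2 edgeR called it, but that fit has a single EV RV library, the one that stood apart, and called 600 of 14408 genes. It pointed the other way from its relative *B4galt1*, but the difference between the pair was not tested.

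Of the other sialyltransferases, 7 were tested, 4 higher and 3 lower. *St3gal2*, which like St3gal1 adds sialic acid to terminal galactose of core 1 type chains, had 33.3 and 30.3 CPM in EV RV cells and 19.7 and 22.7 CPM in Tox RV cells. The groups did not overlap and their replicates were close, with a log2 fold change of -0.58 (SE 0.18, edgeR adjusted p = 0.897, unadjusted p = 0.0184). *St6galnac4*, the most abundant at 52.4 TPM, had a log2 fold change of 0.11 (SE 0.21).

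The fucosylation genes gave 5 higher and 4 lower of 9 tested. *Slc35c1*, the transporter that brings GDP-fucose into the Golgi, had 35.8 and 22.6 CPM in EV RV cells and 19.6 and 16.9 CPM in Tox RV cells. EV RV replicate 1 was the highest library, and the fitted log2 fold change was -0.68 (SE 0.26, edgeR adjusted p = 0.897, unadjusted p = 0.0437). edgeR called the gene when EV RV replicate 2 was left out, in the same fit with 1 EV RV library and 600 of 14408 genes called. *Tsta3*, an enzyme of GDP-fucose synthesis and the most abundant of the group, had a log2 fold change of 0.15 (SE 0.17).

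Of the sulfation genes, 4 of 7 tested were higher and 3 lower. *Tpst2*, a tyrosine sulfotransferase of the kind that modifies PSGL-1, led at 62.5 TPM with a log2 fold change of 0.09 (SE 0.19). *Chst1* reached -1.40 (SE 0.62, edgeR adjusted p = 0.897) on 13, 19, 8 and 4 counts. The genes for sugar donors and their transporters were higher in 8 of 9, with a median of 0.12, a range of -0.02 to 0.43 and 0 called. The most abundant of them was *Nans*, a sialic acid synthase (log2 fold change 0.12, SE 0.29). Among selectins and other scaffolds, 4 of 9 were higher and 5 lower, and *Ptprc* (CD45), the most abundant at 537 TPM, had a log2 fold change of 0.19 (SE 0.16).

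**Figure D4:**
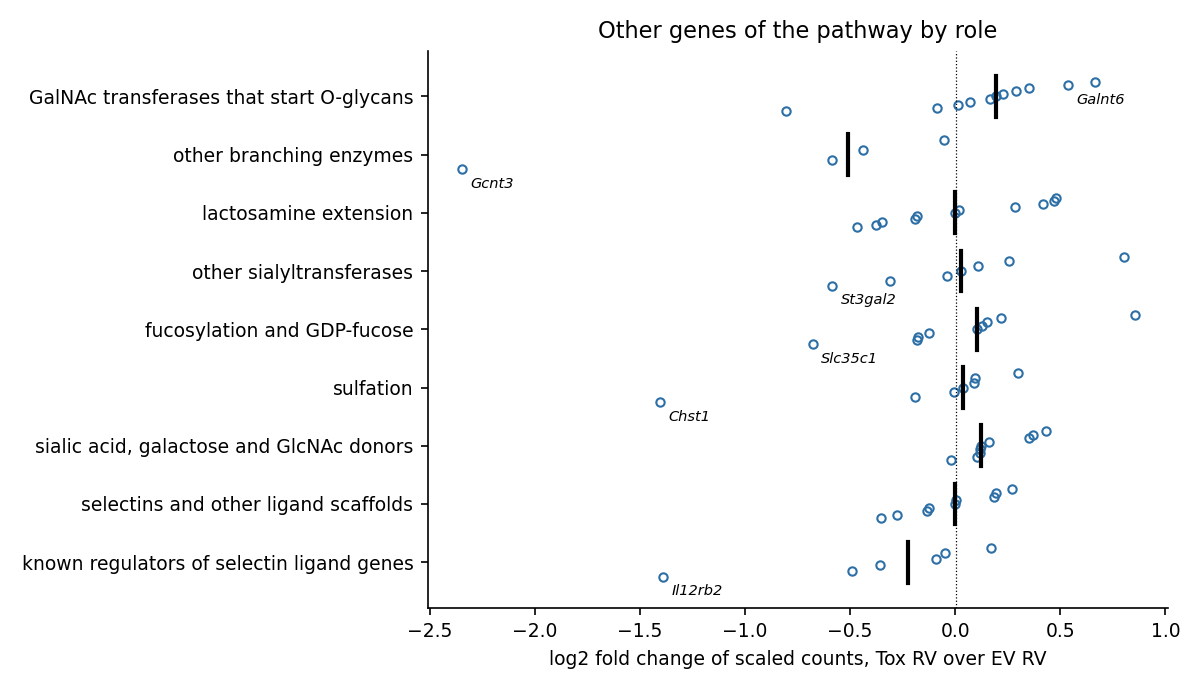
Log2 fold change of scaled counts (horizontal axis, Tox RV over EV RV) for each tested pathway gene outside the list of 10, by role. Circles are genes, short black bars the medians of the roles, and the dotted line the median of all genes at 0.0036. Named circles passed a size above 1 or an unadjusted p-value below 0.05. The 4 tested branching enzymes lie between -2.35 and -0.05, and their groups overlap for all but *Gcnt3*.

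Selectin ligand genes are known to be induced by T-bet and by IL-12 acting through Stat4, and to be held low under Th2 conditions. Of 6 such regulators, 1 was higher and 5 lower, and 0 passed edgeR's test. *Il12rb2*, a chain of the IL-12 receptor, had 442 and 247 CPM in EV RV cells and 150 and 113 CPM in Tox RV cells. The groups did not overlap, with a log2 fold change of -1.39 (SE 0.32, edgeR adjusted p = 0.897), and DESeq2 called this gene. *Tbx21*, which encodes T-bet, had a log2 fold change of -0.09 (SE 0.23) and *Stat4* one of -0.36 (SE 0.24). *Gata3*, the Th2 regulator, stood at -0.49 (SE 0.21), *Stat6* at -0.05 (SE 0.22) and *Il12rb1* at 0.17 (SE 0.20).

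The genes whose centred log2 CPM over the 4 libraries lay nearest to that of *Gcnt1* were *Xcl1* (Euclidean distance 0.318), *Asb2* (0.371), *Acpp* (0.691), *Ahrr* (0.705) and *Adora3* (0.802). *Xcl1*, a chemokine ligand, had 31.2 and 19.0 CPM in EV RV cells and 196 and 99.99 CPM in Tox RV cells. *Asb2* had 47.9 and 38.1 CPM in EV RV cells and 252 and 127 CPM in Tox RV cells. Like *Gcnt1*, both were highest in Tox RV replicate 1. *Acpp* and *Ahrr* reached at most 3.22 CPM. The likeness rests on 4 libraries and on the contrast that chose *Gcnt1*.

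**Figure D5:**
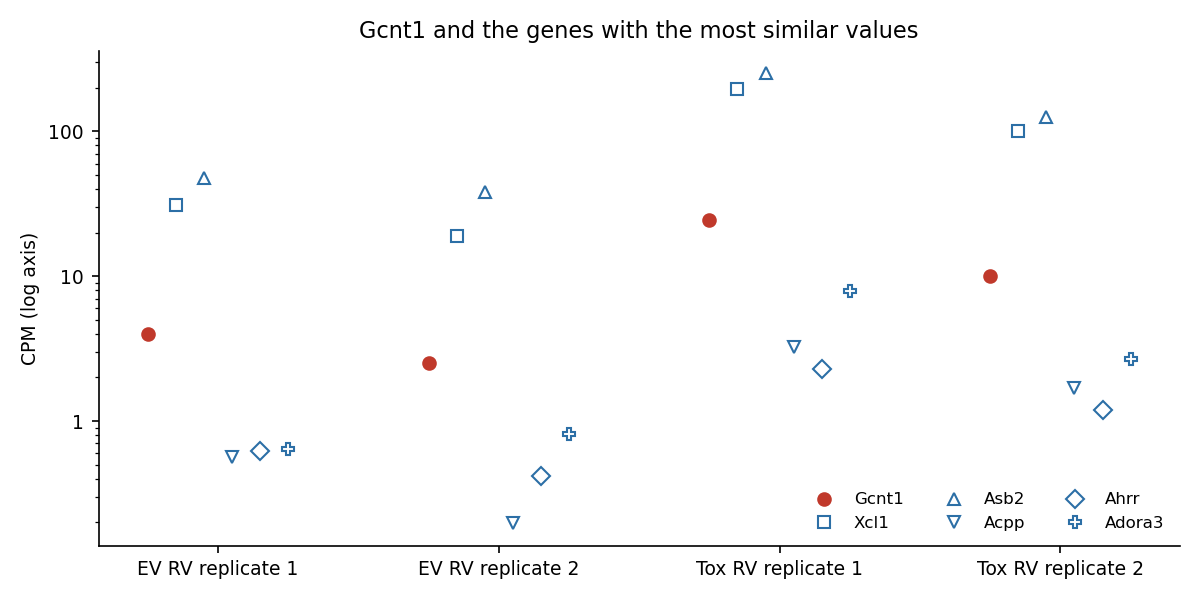
CPM (vertical log axis) of *Gcnt1* (filled red) and of the 5 genes nearest to it (open blue) in each library. All 6 genes have their highest value in Tox RV replicate 1, and *Gcnt1* runs from 2.54 to 24.3 CPM.

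Markers of activation and of other cells were set beside *Gcnt1*. The summed CPM of 12 TCR activation genes was 2660 and 2872 in EV RV cells and 3103 and 2616 in Tox RV cells, so the groups overlapped. The 5 NK cell markers, of which *Ncr1* was at 0 counts in every library, summed to 132 and 121 CPM in EV RV cells and 100.2 and 78.2 CPM in Tox RV cells. This sum was lower in both Tox RV libraries, whereas within each group it was higher in replicate 1, as *Gcnt1* was. Of these markers, *Klrd1* and *Klrk1* summed to 50.9 and 12.4 CPM in EV RV cells and 27.4 and 6.84 CPM in Tox RV cells. In EV RV cells the remaining NK cell markers together were higher in replicate 2. The part of the NK cell markers in the replicate spread of *Gcnt1* was not tested.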

How the data were processed

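RNA-seq was available for 2 EV RV and 2 Tox RV libraries, grouped by their labels. Per the methods, the authors used FastQC for read quality, Bowtie for alignment (mm10) and RSEM for quantification, 1 library per file. The labels also list Bowtie2. The deposited expected counts are RSEM's fragment estimates and are not normalized, so their sum is the depth. The deposited TPM values sum to a fixed total per library, and the deposited FPKM values are scaled by effective length and depth. The deposited length is RSEM's gene length in bases, weighted by transcript. The authors' table that joins all libraries was not used here.

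Expected counts were rounded, genes were filtered by filterByExpr (minimum count 10) and scaled by TMM. The groups were compared with glmQLFit and glmQLFTest of edgeR 4.0.16 (R 4.3.3), with DESeq2 1.42.0 and limma 3.58.1 as alternatives. The fit was also run on simulated counts with known changes, as a check of the code. Those counts held no library that stood apart, so the check does not show how the fit performs on these libraries. P-values were adjusted by Benjamini-Hochberg over all genes tested, and measure the spread between 2 libraries per group. A gene at 0 counts may have up to 3 counts at this depth, for counting error only. The genes and gene lists were chosen with earlier results of these data known. Named genes were the 10 of the list, and of the other pathway genes those with an absolute log2 fold change above 1 or an unadjusted p-value below 0.05, the most abundant of each role, all 6 regulators and the 5 genes nearest to *Gcnt1*. Coordinates are from GENCODE (mm10) and promoters from RefSeq. Windows with more than 30 exon bases were not printed. Protein sequences were not analysed here.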

Additional observations from a re-analysis of the deposited data

How the results depend on the processing

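With 2 libraries per group the call depended on the setting. The count of genes called at an adjusted p-value below 0.05 was 0 in edgeR's quasi-likelihood test, and stayed 0 with RLE size factors, with library totals, with limma on TPM and at an adjusted p-value below 0.1. It was 22 with DESeq2, 22 with no low-count filter, 16 with the replicate number as a block (replicate block), and 1 to 600 with 1 library left out, 600 being the value without EV RV replicate 2. Such a fit assumes that the lone library varies like the other group. Whether libraries with the same number shared a mouse is not stated, and 2 pairs (correlation of their deviations across genes 0.302) were too few to settle it, so the block was kept as an alternative. The log2 fold change of *Gcnt1* was 2.90 without Tox RV replicate 2, which keeps only its highest Tox RV library, and 1.62 without Tox RV replicate 1. Among the fits of all 4 libraries, *Gcnt1* was called with DESeq2, without the filter and under the block. These calls use the values on which the gene was chosen and are no separate evidence. Of the other pathway genes 0 were called in every setting except without EV RV replicate 2 (0 to 2 over the libraries left out, the 2 being *B4galt5* and *Slc35c1*), where *B4galt1* was called too. The cause was not tested.

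The log2 fold change of *Gcnt1* kept its sign in all 12 alternatives. It was 1.57 on log2(TPM + 1), where the pseudocount narrows differences at low levels, and 1.62 to 2.90 with 1 library left out. The log2 difference of its ratio to *St3gal1* was 2.74 by FPKM or by counts, and 2.11 to 3.35 with 1 library left out. *St3gal1*, *C1galt1c1* and *B4galt1* also kept 1 sign, and the other 6 genes did not: *Fut7* was 0.02 by library totals, *C1galt1* -0.03 and *Spn* -0.0043 by TPM, *Selplg* 0.25 without EV RV replicate 1, *St3gal4* 0.15 without EV RV replicate 2 and *St3gal6* -0.15 without Tox RV replicate 2. Library totals moved the median of all genes to 0.12, and leaving *Rn45s* out of the totals, added after seeing the data, to -0.04. Within EV RV replicate 1 alone, 6 of the 10 genes kept their rank by TPM. *St3gal6* (62 to 161 counts) and *Gcnt1* in EV RV cells (169 and 193 counts) rest on the fewest counts of the 10 genes.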
